A study of Mus musculus with 2 samples.

Results

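The genes described here are those that encode the subunits of the proteasome, the protease that breaks down ubiquitin-tagged proteins. They were taken from GENCODE release M21 as every protein-coding gene whose symbol starts with Psma, Psmb, Psmc, Psmd or Psme followed by a digit. This gave 45 genes of 21911 protein-coding symbols. By role, 5 belong to the immunoproteasome and its activator, 36 belong to the constitutive proteasome or its assembly and activation, and 4 stand outside both. Of those 4, Psma8 is a testis-specific alpha subunit and Psmb11 is the beta subunit of the thymic proteasome. Psmc3ip is a meiotic recombination factor and no subunit, and Psme2b shares a symbol stem with Psme2.

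The data are DNase-seq libraries, which read accessible chromatin from the ends of DNA that DNase I releases from nuclei. Both come from the gastrocnemius, a calf muscle, of male B6CASTF1/J mice aged 25 days, hybrids of C57BL/6J and CAST/EiJ with no stated treatment. There is 1 group of 2 libraries, biological replicates 1 and 2, whose biosample descriptions number different males although both carry the same donor identifier. Instrument models are named for replicate 1 only, so that animal, library and sequencing cannot be told apart.

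The 20S core of the proteasome is a barrel of alpha and beta rings, with the catalytic sites on the beta subunits Psmb5, Psmb6 and Psmb7. The 19S cap adds a ring of ATPases that unfold substrates and a lid of non-ATPase subunits that bind and remove ubiquitin. Interferon gamma induces Psmb8, Psmb9 and Psmb10, which replace the constitutive catalytic subunits, and the Psme1 and Psme2 activator, and this immunoproteasome serves antigen presentation in immune cells above all. In skeletal muscle the ubiquitin-proteasome pathway carries much of the protein loss of atrophy.

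The signal of a gene is the authors' value for the strongest peak within 1000 bp of any of its annotated starts. Signals were whole multiples of a step of 0.00591 in replicate 1 and 0.00854 in replicate 2, as tags scaled to library totals of 169 M and 117 M tags would be. The 95% Poisson interval of a member's signal reached 4.93% to 11.7% of the signal to either side in replicate 1 and, with Psma8 left out, 5.78% to 13.7% in replicate 2. These intervals cover counting error only. Replicate 1 had 97499 peaks and 243784 footprints, and replicate 2 had 61664 and 171389. Promoter peaks were present at 6 of 6 muscle fibre genes, 5 of 5 endothelial and 3 of 3 fibroblast genes in both libraries. The share over all protein-coding genes was 63.0%. Of 10 leukocyte genes, only Spi1, with signals of 1.04 and 1.09, and Lyz2, with 0.367 and 0.419, had one. The median signal of the leukocyte genes with a peak was 0.704 and 0.752, against 3.53 and 2.78 for the muscle fibre genes. For the endothelial genes it was 1.34 and 1.36, and for the fibroblast genes 2.85 and 3.05. The lowest muscle fibre gene, Myog, had 1.00 and 1.09. Whole muscle was sampled, so fewer cells with an open promoter and a less open promoter in each cell cannot be told apart.

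Sequences of 10 member promoters are shown first, because the results on footprints and motifs rest on them. They were read by coordinates from the RefSeq genome sequence of GRCm38.p6, the assembly of mm10, on the strand of the gene. Each runs from the upstream edge of the strongest replicate 1 peak to the peak's other edge or to the 30th base from the annotated start nearest the peak, whichever comes first. Capitals mark bases inside a footprint, a short protected stretch called by the authors, in both libraries. The sequence is the C57BL/6J reference, and CAST/EiJ alleles were not used here. The immunoproteasome promoters are Psmb8 at chr17:34197581-34197750 on the plus strand, Psmb9 at chr17:34187341-34187520 on the minus strand and Psmb10 at chr8:105937009-105937220 on the minus strand. Psme1 lies at chr14:55578421-55578515 on the plus strand and Psme2 at chr14:55591058-55591220 on the minus strand. The Psmb10 stretch lies inside the gene, at a peak centred 1343 bp from its coding start.
Psmb8: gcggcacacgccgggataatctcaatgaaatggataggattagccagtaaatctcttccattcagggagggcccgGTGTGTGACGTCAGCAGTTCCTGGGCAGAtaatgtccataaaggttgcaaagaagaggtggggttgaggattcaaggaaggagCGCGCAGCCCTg
Psmb9: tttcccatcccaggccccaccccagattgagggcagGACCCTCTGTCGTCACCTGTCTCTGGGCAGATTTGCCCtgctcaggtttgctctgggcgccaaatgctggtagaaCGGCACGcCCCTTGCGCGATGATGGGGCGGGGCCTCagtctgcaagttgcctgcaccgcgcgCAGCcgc
Psmb10: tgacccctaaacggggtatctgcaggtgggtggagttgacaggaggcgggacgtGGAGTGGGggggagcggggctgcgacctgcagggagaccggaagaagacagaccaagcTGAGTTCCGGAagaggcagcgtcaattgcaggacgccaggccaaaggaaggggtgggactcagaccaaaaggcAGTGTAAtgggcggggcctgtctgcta
Psme1: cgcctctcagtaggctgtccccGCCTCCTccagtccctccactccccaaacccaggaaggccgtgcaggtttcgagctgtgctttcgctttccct
Psme2: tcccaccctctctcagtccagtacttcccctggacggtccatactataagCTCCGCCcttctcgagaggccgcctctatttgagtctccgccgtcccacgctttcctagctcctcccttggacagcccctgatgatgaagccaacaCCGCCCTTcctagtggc

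The second set holds constitutive promoters, chosen for a motif match under a footprint. Psmb5 at chr14:54617993-54618140 on the minus strand, Psmb6 at chr11:70525241-70525396 on the plus strand and the assembly chaperone gene Psmd9 at chr5:123228121-123228219 on the plus strand hold the antioxidant response element. The ATPase gene Psmc5 at chr11:106256041-106256183 on the plus strand and the alpha subunit gene Psma2 at chr13:14613001-14613260 on the plus strand hold the NRF1 element.
Psmb5: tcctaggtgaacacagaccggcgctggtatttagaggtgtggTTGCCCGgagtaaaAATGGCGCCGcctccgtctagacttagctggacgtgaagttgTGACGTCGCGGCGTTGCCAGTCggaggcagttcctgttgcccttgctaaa
Psmb6: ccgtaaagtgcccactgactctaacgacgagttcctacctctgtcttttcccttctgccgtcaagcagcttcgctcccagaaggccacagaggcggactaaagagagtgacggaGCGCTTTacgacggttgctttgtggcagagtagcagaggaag
Psmd9: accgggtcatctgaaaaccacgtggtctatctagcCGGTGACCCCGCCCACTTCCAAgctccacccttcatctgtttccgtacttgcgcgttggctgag
Psmc5: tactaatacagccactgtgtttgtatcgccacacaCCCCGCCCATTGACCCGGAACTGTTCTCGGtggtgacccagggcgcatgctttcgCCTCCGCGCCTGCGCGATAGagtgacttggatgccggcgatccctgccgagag
Psma2: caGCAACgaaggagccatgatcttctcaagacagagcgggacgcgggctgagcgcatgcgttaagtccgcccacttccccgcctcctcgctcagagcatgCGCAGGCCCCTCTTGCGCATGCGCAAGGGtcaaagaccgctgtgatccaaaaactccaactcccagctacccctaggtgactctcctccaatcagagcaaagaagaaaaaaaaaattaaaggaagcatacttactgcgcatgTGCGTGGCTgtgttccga

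Every immunoproteasome gene had an accessible promoter in this muscle, and so did every constitutive subunit gene. A promoter peak was found for 5 of 5 immunoproteasome and 36 of 36 constitutive genes in each library. Among all 45 members the count was 42 in replicate 1, 43 in replicate 2 and 42 in both. Over all protein-coding genes the share was 66.5% in replicate 1, 64.2% in replicate 2 and 63.0% in both. The genes without a peak in a library were Psma8, Psmb11 and Psme2b, all of them outside both classes. Psmb11 and Psme2b had none in either library and no footprint. Psma8 had none in replicate 1 and a single weak peak in replicate 2, with a signal of 0.367 from 43 tags and 1 footprint. Psmc3ip, which is no subunit, had signals of 5.05 and 4.73 in replicates 1 and 2.

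The median immunoproteasome promoter carried less signal than the median constitutive one, which stood above the median of all promoters. The median signal over the 5 immunoproteasome genes was 3.71 in replicate 1 and 2.65 in replicate 2. Over the constitutive genes it was 5.25 and 4.61, against 3.57 and 3.43 over all protein-coding genes with a promoter peak. In percentiles of promoter signal within a library, the immunoproteasome median was 51.5 and 38.8 and the constitutive median was 66.5 and 66.6. Of the immunoproteasome genes, 3 and 2 of 5 lay above the median of all promoters and 1 lay in the top 25% in each library. Of the constitutive genes, 29 of 36 lay above that median in each library, and 14 and 11 lay in the top 25%. The log2 ratio of the immunoproteasome over the constitutive median was -0.50 in replicate 1 and -0.80 in replicate 2, a mean of -0.65 ± 0.21 (SD, n = 2). The classes overlapped gene by gene. In replicate 1, 28 of 36 constitutive genes fell inside the immunoproteasome range of 1.72 to 7.03, and in replicate 2, 34 fell inside 2.0 to 7.40. No test was made of these differences, since an exact sign permutation over 2 libraries cannot give a two-sided p below 0.5.

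**Figure D1:**
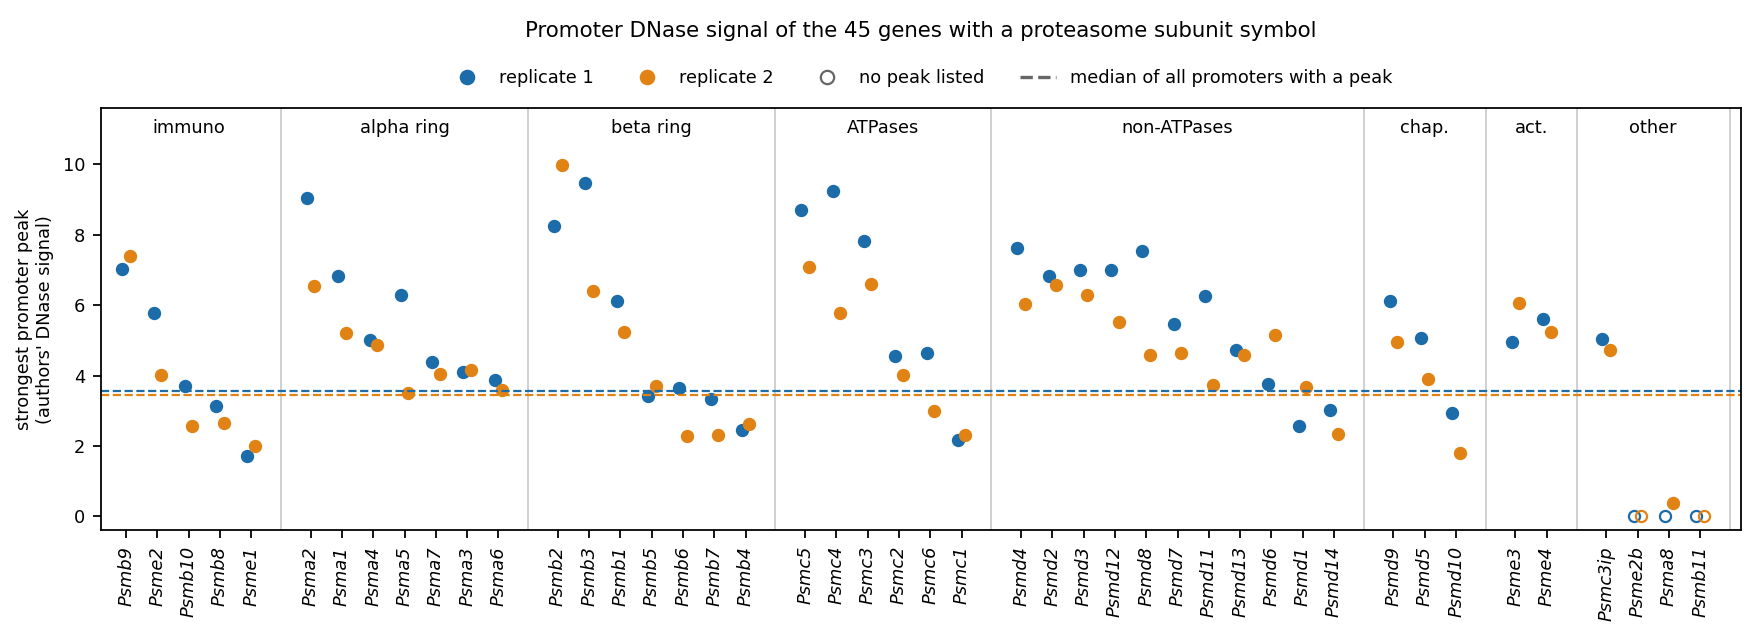
Signal of the strongest promoter peak (authors' DNase signal, y axis) for each of the 45 genes (x axis), grouped by role, with a filled point for each library. Open points at 0 mark genes with no promoter peak, and dashed lines mark the medians of 3.57 and 3.43 over all promoters with a peak. The immunoproteasome genes reach from 1.72 to 7.40 and the constitutive genes from 1.80 to 9.98.

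Within the immunoproteasome, Psmb9 stood above the other members. Psmb9, which takes the place of Psmb6, had signals of 7.03 and 7.40 in replicates 1 and 2, a mean of 7.21 ± 0.26 (SD, n = 2). Psme2, a subunit of the activator, had 5.78 and 4.02. Psmb10, which takes the place of Psmb7, had 3.71 and 2.56. These 3 genes led the class in replicate 1, while Psmb10 was just below Psmb8 in replicate 2. Psmb8, which takes the place of Psmb5, had 3.13 and 2.65. Psme1, the partner of Psme2, was the lowest with 1.72 and 2.0, and it was the lowest member of all 42 with a peak in both in replicate 1. Only Psmd10 was lower in replicate 2 among those 42. The pan-leukocyte gene Ptprc and 7 of the 9 other leukocyte genes had no promoter peak in either library, while Spi1 and Lyz2 had one. Which cells gave the immunoproteasome signals was not tested.

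The Psmb9 value is shared with a neighbour. Its strongest peak also lay within 1000 bp of a start of Tap1, a peptide transporter of antigen presentation, so Tap1 has the same signals of 7.03 and 7.40. The start of Psmb9 nearest to the peak begins a transcript annotated for nonsense-mediated decay. The nearest start of a coding transcript was 212 bp from the peak centre in replicate 1 and 232 bp in replicate 2. Psme2 likewise shared its strongest peak with Rnf31, a subunit of a ubiquitin ligase complex. Its strongest peak was at the start in replicate 1, where a second peak 548 bp upstream had 5.64. In replicate 2 the upstream peak, with 4.02, exceeded the one at the start, with 3.04.

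At Psmb10 the strongest peak lay inside the gene. Its centre was 1343 bp downstream of the start of the only coding transcript in replicate 1, at starts annotated to retained-intron and processed transcripts. Within 1000 bp of the coding start the strongest peak of Psmb10 had 0.840 in replicate 1 and 1.40 in replicate 2. All 5 immunoproteasome genes had more than 1 listed promoter peak in each library, although at Psme1 in replicate 2 the weaker one lay inside the stronger, while 25 and 27 of 36 constitutive genes had a single one. Over all protein-coding genes with a promoter peak, 42.1% and 50.3% had a single one. These counts and the sums below depend on how many starts of a gene are annotated. The immunoproteasome genes had from 6 starts at Psmb8 to 12 at Psme1. Constitutive genes had from 1 at Psmc5 to 13 at Psmd11. Summed over promoter peaks, the signal was 11.4 and 7.07 for Psme2, 7.62 and 8.28 for Psmb9, and 5.29 and 3.96 for Psmb10. The sums were 3.82 and 3.63 for Psmb8 and 2.87 and 3.38 for Psme1, whose replicate 2 sum is 2.0 without the nested peak.

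Set beside the constitutive subunit that it replaces, 1 immunoproteasome gene of 3 had the higher signal by a wide margin. Psmb9 had 7.03 and 7.40, against 3.64 and 2.28 for Psmb6, a mean log2 difference of 1.32 ± 0.53 (SD, n = 2). That Psmb9 peak is shared with Tap1, so its signal cannot be assigned to either gene. Psmb10 had 3.71 and 2.56, against 3.34 and 2.32 for Psmb7, a log2 difference of 0.15 ± 0.01. That Psmb10 peak lay inside the gene. Within 1000 bp of its coding start Psmb10 had 0.840 and 1.40, below Psmb7 in each library. Psmb8 had 3.13 and 2.65, against 3.43 and 3.69 for Psmb5, a log2 difference of -0.31 ± 0.24. By strongest peak, the order of the first pair held in both libraries at about 1.93-fold and 3.24-fold, and the other pairs were closer together.

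Among the constitutive 20S core genes, signal was spread widely over the beta ring and less over the alpha ring. The alpha subunit genes had medians of 5.00 and 4.16, and all 7 lay above the median of all promoters in each library. Psma2 had 9.04 and 6.55, Psma1 had 6.83 and 5.20, and Psma4 had 5.00 and 4.86. At the other end of the ring, Psma6 had 3.89 and 3.59, Psma3 had 4.10 and 4.16, and Psma7 had 4.38 and 4.04. The beta subunit genes had the lowest class medians of the constitutive proteasome, 3.64 and 3.69, and 4 of 7 lay above the median of all promoters in each library. Psmb2 had 8.25 and 9.98, the highest member signal of replicate 2. Psmb3 had 9.48 and 6.41, the highest member signal of replicate 1, and Psmb1 had 6.12 and 5.24. These 3 encode subunits with no catalytic site of their own. The genes of the catalytic subunits, Psmb5, Psmb6 and Psmb7, had 2.28 to 3.69 across both libraries, and Psmb4, also without a catalytic site, had 2.47 and 2.62.

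The Psmb3 values come from different places. In replicate 1 its strongest peak was centred 98 bp upstream of the start. In replicate 2 it was centred 848 bp upstream, where the replicate 1 peak had 4.50, and the peak nearest the start in replicate 2 had 2.88. The strongest peak was the same region in both libraries for 40 of the 42 members with a peak in both, with Psmb3 and Psme2 the exceptions. That is 95.2% of them, against 93.7% of all promoters with a peak in both.

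In the 19S cap, the ATPase and non-ATPase genes had similar medians. The 6 ATPase genes had medians of 6.23 and 4.89, and the 11 non-ATPase genes had 6.26 and 4.64. Psmc5 had 8.71 and 7.08, Psmc4 had 9.24 and 5.77, and Psmc3 had 7.81 and 6.61. Psmc2 had 4.57 and 4.02 and Psmc6 had 4.64 and 3.0. Psmc1 had 2.16 and 2.30, the lowest of the ATPase ring in each library and at the 33.4 and 33.7 percentiles of all promoters. The ring holds a copy of each ATPase, and its genes spanned these signals from 2.16 to 9.24 in replicate 1. Of the non-ATPases, the ubiquitin receptor gene Psmd4 had 7.61 and 6.02, the scaffold gene Psmd2 had 6.83 and 6.58, and Psmd3 had 7.0 and 6.29. Psmd14, which encodes the deubiquitinase of the lid, had 3.03 and 2.35, Psmd1 had 2.57 and 3.68, and Psmd6 had 3.76 and 5.15. The non-ATPase class thus held genes in the top 25% of promoters, 6 in replicate 1 and 4 in replicate 2, beside a deubiquitinase gene below the median.

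Assembly factors and the other activators also had accessible promoters. Of the chaperones that build the base of the cap, Psmd9 had 6.10 and 4.96 and Psmd5 had 5.05 and 3.89. Psmd10, at a peak shared with Atg4a, had 2.95 and 1.80, the lowest of the class in each library. It lies on the X chromosome and so is present in a single copy in these males. Whether copy number bears on its signal was not tested. The nuclear activator gene Psme3 had 4.96 and 6.07, and Psme4, which encodes a further activator, had 5.60 and 5.23. These activator genes exceeded Psme1 in each library, and Psme2 lay above both of them in replicate 1 and below both in replicate 2.

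Peaks of the members sat on the annotated starts. The centre of the strongest peak lay within 100 bp of a start for 5 of 5 immunoproteasome genes in replicate 1 and 3 of 5 in replicate 2, and for 33 and 29 of 36 constitutive genes. Over all protein-coding genes with a promoter peak, 66.8% and 63.1% did so. The median distance was 40 and 86 bp over immunoproteasome genes, 29.5 and 27 bp over constitutive genes, and 59 and 67 bp over all. The start nearest the strongest peak began a coding transcript for 34 of the 42 members with a peak in both. Psma6, Psmd5 and Psmd9 are annotated with a distant 5′ end, and their peaks lay at internal starts of coding transcripts. In each library, 10 members shared their strongest peak with another coding gene, or 23.8% and 23.3% of those with a peak against 18.9% and 19.6% over all. Besides Psmb9 and Psme2 these were Psma2 with Mrpl32, Psma4 with AY074887, Psma7 with Ss18l1, Psmb1 with Tbp, Psmc2 with Dnajc2, Psmc5 with Ftsj3, Psmd10 with Atg4a and Psmd13 with Sirt3. A signal at such a peak cannot be assigned to either gene.

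The median number of distal peaks near the members was that of all genes. Within 20 kb of a member the median number of peaks away from all promoters was 2 in replicate 1 and 1 in replicate 2, as it was over all protein-coding genes. Replicate 1 had none near 7 members, or 15.6%, and replicate 2 none near 15, or 33.3%, against 29.5% and 43.9% of all protein-coding genes. Psme1 and Psme2 had none in either library. The largest number in replicate 1 was 6, at Psmb7, Psmd9, Psmd12 and Psmd13, and in replicate 2 it was 10, at Psmd9.

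Between the libraries, member signals leaned towards replicate 1. As the log2 of the replicate 1 signal over the replicate 2 signal, the median was 0.24 over the 5 immunoproteasome genes and 0.24 over the constitutive genes, against 0.12 over all promoters with a peak in both. Replicate 1 was higher for 32 of 42 members and for 61.0% of all promoters. Beyond 2-fold, after the median of all promoters was subtracted, lay 1.99% of all promoters and 0 of 42 members. At that share 42 members would hold hardly any, so the count does not set them apart. The largest ratios of strongest peaks towards replicate 1 were at Psma5, Psmd11 and Psmd8. Psma5, an alpha subunit gene, had 6.29 and 3.51, a log2 ratio of 0.84 with a counting error of 0.08. The scaffold subunit gene Psmd11 had 6.26 and 3.73, a log2 ratio of 0.74, and the lid subunit gene Psmd8 had 7.54 and 4.58, a log2 ratio of 0.72. The largest ratios towards replicate 2 were -0.52 at Psmd1, -0.46 at Psmd6 and -0.29 at Psme3. These differences exceeded the counting errors of the peaks. With 2 libraries, whose labels disagree on the donor, the spread between animals could not be estimated gene by gene. At Psmb3 and Psme2 the strongest peaks are different regions, and matched regions gave other ratios. The peak at the start of Psmb3 had 9.48 and 2.88, a log2 ratio of 1.72, and its upstream peak had 4.50 and 6.41, a log2 ratio of -0.51. The peak at the start of Psme2 had 5.78 and 3.04, a log2 ratio of 0.93, and its upstream peak had 5.64 and 4.02, a log2 ratio of 0.49. The median absolute ratio of strongest peaks, centred in the same way, was 0.22 over members and 0.29 over all promoters. The Spearman correlation of signals between the libraries was 0.85 over members and 0.94 over all promoters.

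**Figure D2:**
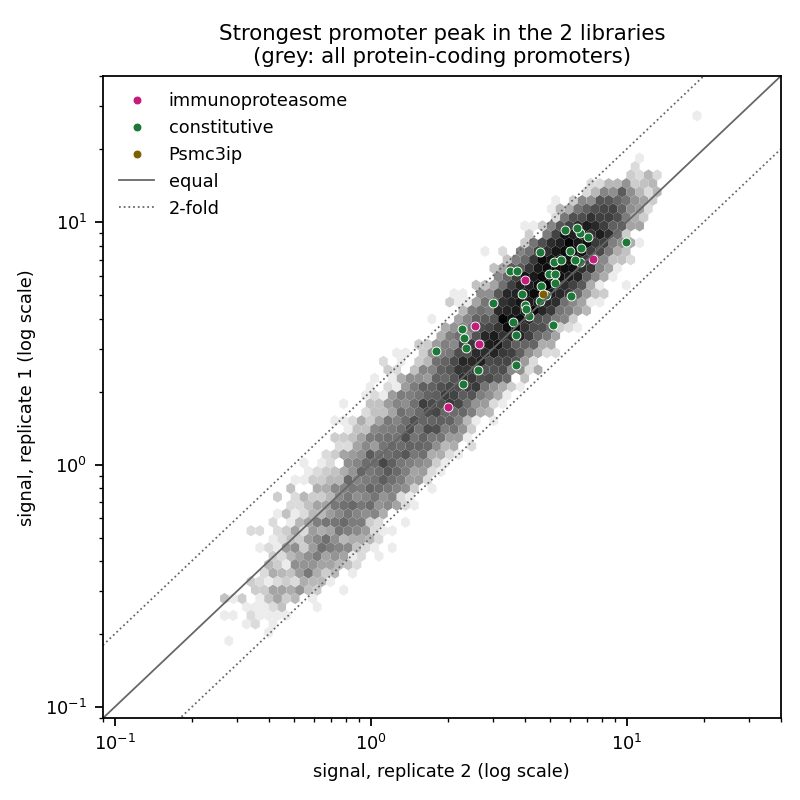
Signal of the strongest promoter peak in replicate 1 (y axis) against replicate 2 (x axis), both on log scales, for the immunoproteasome genes, the constitutive genes, Psmc3ip and all 13802 protein-coding genes with a peak in both libraries (grey, darker where more genes fall). Solid and dotted lines mark equal signals and 2-fold differences, and the members lie between the dotted lines.

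Footprints mark stretches that a bound protein shields from DNase I. Within 1000 bp of a start, immunoproteasome genes held 32 footprints in replicate 1 and 40 in replicate 2, with medians of 7 and 7 per gene. Constitutive genes held 258 and 243, with medians of 7 and 6. The median over all protein-coding genes with a promoter peak was 7 and 7, so the members were at the level of accessible promoters in general. Psmb1 had the most over both libraries, with 12 and 13, followed by Psmb3 with 13 and 11, Psmb5 with 12 and 11 and Psme3 with 11 and 9. Psme2, with 7 and 12, and Psmd1, with 8 and 11, tied for the next place. The catalytic subunit gene Psmb6 stood at the other end with 3 and 2.

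Footprints of the members can be described by their distance from starts and by how many both libraries share. Of the member footprints, 67.0% in replicate 1 and 63.7% in replicate 2 were centred within 100 bp of a start, against 52.4% and 51.4% near all protein-coding starts. For immunoproteasome genes the share was 65.6% in replicate 1 and 47.5% in replicate 2. The share that overlapped a footprint of the other library by at least 1 bp was 61.3% and 64.0% for members and 52.1% and 53.7% over all. For immunoproteasome genes that share was 65.6% and 50%, and for constitutive genes it was 60.9% and 66.7%. In replicate 2 both immunoproteasome shares lay below those over all genes. Footprints of 1 gene are not independent of each other, and no test was made of these shares.

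**Figure D3:**
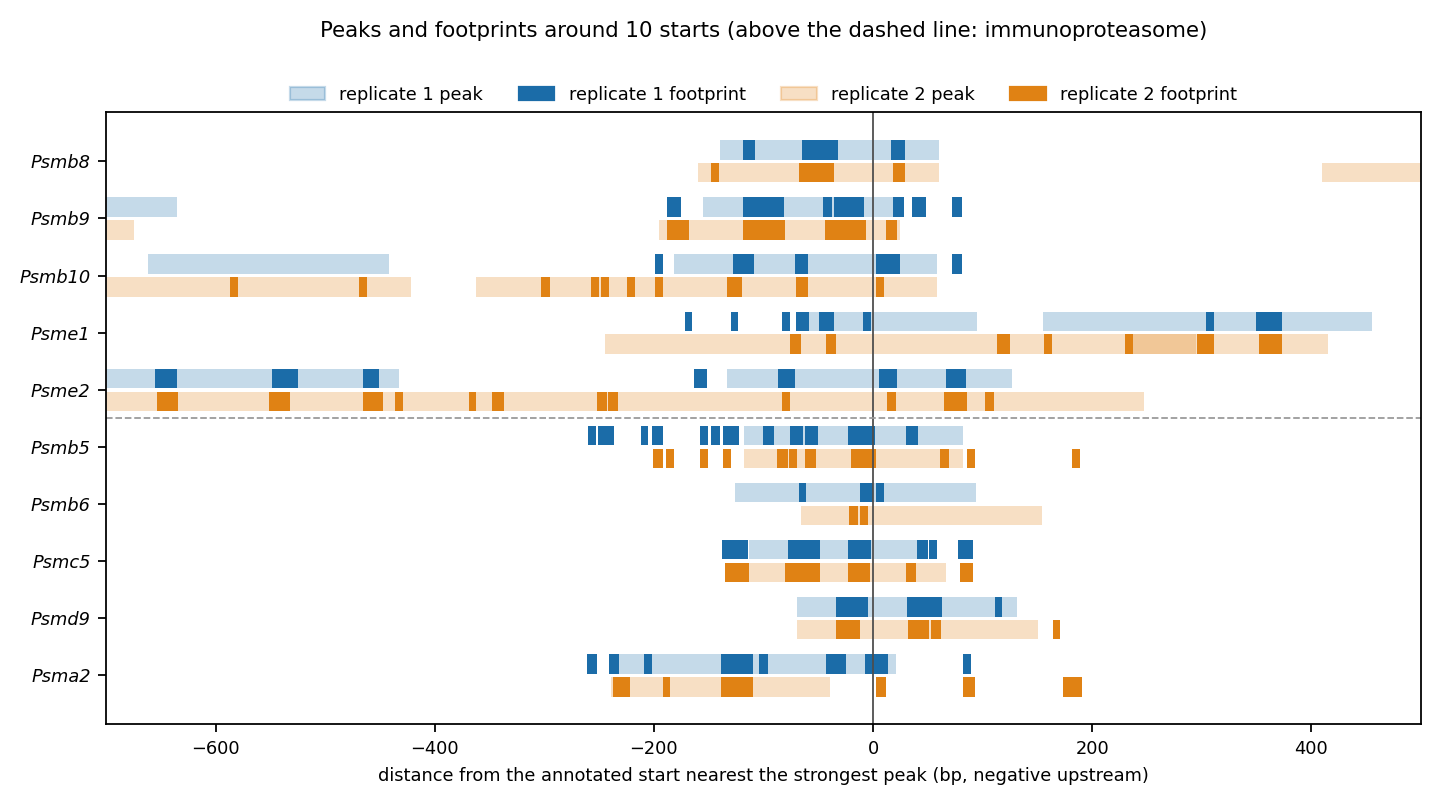
Promoter peaks (pale bars) and footprints (dark bars) of replicate 1 and replicate 2 around the start nearest the strongest peak, for the 5 immunoproteasome genes above the dashed line and below it 5 constitutive genes whose sequences are printed. The x axis is the distance from that start in bp, negative upstream. Psmb9 and Psmc5 show long footprints in both libraries, and Psmb6 shows 3 and 2 short ones.

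The member promoters, those not printed above included, differ in how much of the 300 bp around the peak centre is footprinted. The immunoproteasome gene Psmb9 had the most, 90 of 300 bp around its peak centre lying in a footprint in both libraries, followed by Psmc5 with 83 and Psmc4 with 71. At the other end were Psma6 with 5, Psmb6 with 7 and Psme1 with 11. The median was 33 bp over the 5 immunoproteasome promoters and 46 bp over 30 constitutive promoters, against 38 bp over 10707 other promoters with a peak in both libraries. These windows cover the members with an entry in the RefSeq promoter table and a peak in both libraries, 36 of 45. Psma8, Psmb1, Psmb2, Psmb7, Psmc3, Psmd3 and Psmd7 have no entry.

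The windows also differed in CpG content. The ratio of observed to expected CpG had a median of 0.60 over the immunoproteasome windows, 0.799 over the constitutive windows and 0.820 over the others. It was above 0.6 in 2 of the 5 immunoproteasome windows, or 40%, in 96.7% of the constitutive windows and in 81.5% of the others. Psme2 had 0.399, the lowest of any member, Psmb10 had 0.489 and Psmb9 lay just under the limit at 0.5996, while Psme1 had 0.652 and Psmb8 had 0.735. The Psmb10 window surrounds a peak inside the gene and does not cover the coding start. The constitutive gene below that level was Psmd10 with 0.473. The GC content did not separate the classes in the same way, with medians of 61.3% for immunoproteasome, 62.3% for constitutive and 65.0% for other windows.

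In these windows 13 short motifs were searched on both strands, and a match is a run of letters and not a shown binding site. The ETS element CCGGAAGT was found in 8 of 30 constitutive windows, or 26.7%, and in 0 of 5 immunoproteasome windows, against 8.48% of other windows. The NRF1 element GCGCNTGCG was found in 7 of 30, or 23.3%, and in 0 of 5, against 15.9%. It is named for nuclear respiratory factor 1, a different protein from NFE2L1. The antioxidant response element TGACNNNGC, the class of site that NFE2L1 and NFE2L2 bind when they induce proteasome genes, was found in 8 of 30, or 26.7%, and in 1 of 5, Psmb10, against 15.9%. The commonest motif was the Sp/KLF element GGGCGG, in 22 of 30 constitutive and 5 of 5 immunoproteasome windows, against 71.5%. The NF-Y element CCAAT was in 11 of 30 and in 1 of 5, Psmb9, against 37.9%. The YY1 element AAGATGGCG was in 3 of 30 and 0 of 5, against 3.91%. Shares over 30 windows move by 3.33 percentage points with a single gene. Matches at Psmb10 are those of a window inside the gene, away from its coding start.

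Under the footprints, the antioxidant response element of 3 members touched a footprint in both libraries. At Psmb5 the match TGACGTCGC began 20 bp upstream of the start, and all 9 of its bases lay in a footprint in both libraries. At Psmd9 the match TGACCCCGC began 31 bp upstream with all 9 bases covered, and it overlaps an Sp/KLF match on the opposite strand. At Psmb6 the match TGACGGAGC began 19 bp upstream with 2 bases covered in both. The other constitutive matches, at Psma1, Psma3, Psmc6, Psmd1 and Psme4, had no base covered in both libraries. Over other promoters, 32.6% of the matches touched a footprint in both libraries, against 33.3% of the 9 matches of members, so the share was close to the background.

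Most matches of the NRF1 element touched a footprint. Of its 9 matches in members, 7 touched a footprint in both libraries, or 77.8%, against 81.9% in other promoters. At Psmc5 the match GCGCCTGCG began 18 bp upstream of the start, inside the second capital run of the sequence shown. At Psma2 a pair of overlapping matches on opposite strands, 125 and 124 bp upstream, lay inside the long capital run. The remaining matches with all 9 bases covered were at Psma4, Psma5, Psmc4 and Psmd14.

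Among the immunoproteasome windows the CREB/ATF element TGACGTCA occurred once, at Psmb8, and in 3.79% of other windows. It began 60 bp upstream of the start and all 8 bases lay in a footprint in both libraries, the first capital run of the sequence shown. In other promoters 87.8% of the matches of this element touched a footprint in both. The interferon-stimulated element GAAANNGAA occurred at Psme1, on the opposite strand 18 bp downstream of the start, and in 3 of 30 constitutive windows, against 5.12% of others. Its bases at Psme1 were in no footprint. The STAT element TTCNNNGAA occurred at Psmb8 and in 1 constitutive window, Psmd2, against 5.57% of others, and at Psmb8 it too was in no footprint. The heat shock element GAANNTTC occurred at Psmb9 alone among the members, in no footprint, against 4.65%. The NF-kB element GGANTTTCC was in none of the 36 member windows, against 1.16%, and the TATA box TATAAA was in 2 of 30 constitutive windows, against 3.79%. The E-box CACGTG was in 4 of 30 and in 1 of 5, Psmb10, against 10.5%.

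**Figure D4:**
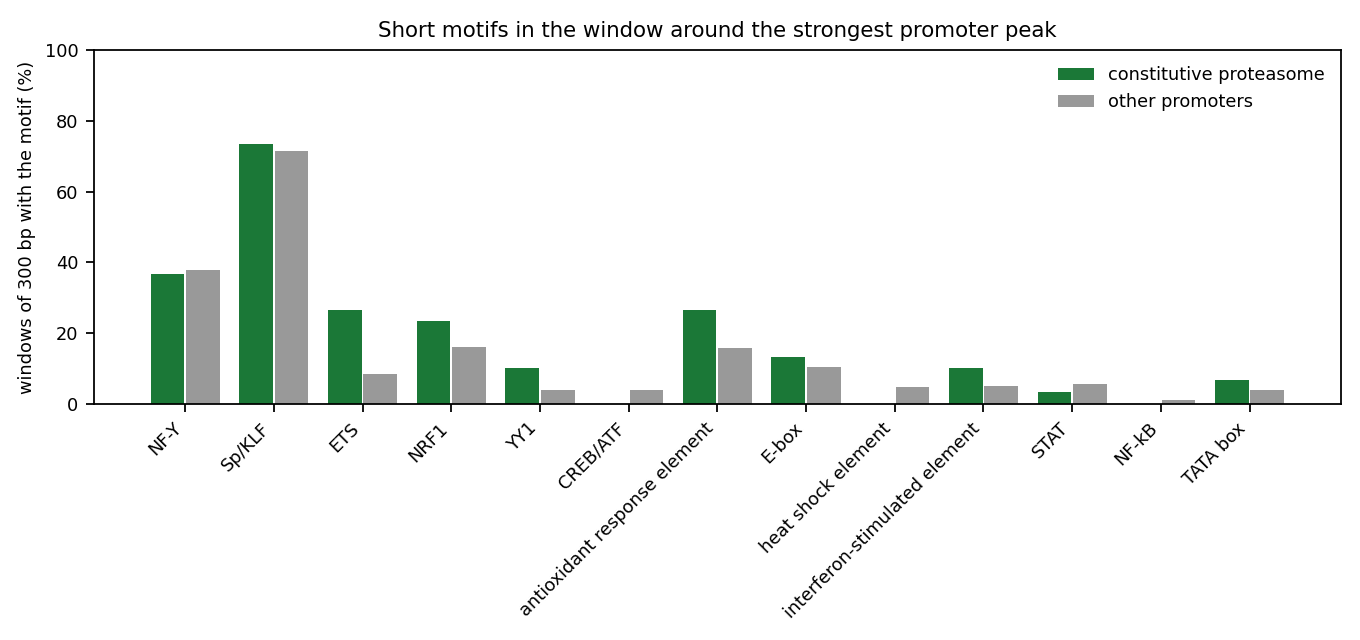
Share of 300 bp windows (y axis, %) that hold each of 13 motifs (x axis), for 30 constitutive proteasome promoters and 10707 other promoters with a peak in both libraries. The ETS element stands at 26.7% against 8.48% and the Sp/KLF element at 73.3% against 71.5%.

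Genes that act with the proteasome under other names were accessible throughout. All 37 genes of 5 pathway lists had a promoter peak in both libraries, against 63.0% of all protein-coding genes. The regulators of proteasome gene expression had median signals of 8.03 and 5.89, with 5 and 4 of 7 in the top 25%. Among them Nfe2l1 had 8.18 and 4.98 and Nfe2l2 had 10.5 and 6.54. The ubiquitin ligase genes of muscle atrophy were low, Fbxo32 with 2.67 and 2.60 and Trim63 with 1.41 and 1.37. The 9 further subunit, inhibitor and assembly genes had medians of 4.45 and 5.19, with the ubiquitin receptor gene Adrm1 the highest in replicate 1, at 9.95 and 8.03, and the assembly factor gene Psmg1 the highest in replicate 2, at 7.95 and 9.32. The 11 ubiquitin and shuttle genes had 4.50 and 5.77. The 8 antigen processing and interferon genes had 4.50 and 3.97, and the lowest of them was Nlrc5, an activator of MHC class I genes, with 0.958 and 1.20. The immunoproteasome medians of 3.71 and 2.65 were below those of this list in each library. Tap1 of this list has the same peak as Psmb9, so that value enters both medians.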

How the data were processed

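DNase-seq libraries of mouse gastrocnemius, 1 group of 2 biological replicates by the labels, were analysed from their deposited lists on mm10. The authors made the lists per library and not on pooled reads, per the deposited README notes, and no source used here names their aligner, peak caller or footprint caller. The deposited peak signal is the authors' value, and its reading as tags scaled to library size comes from the values. The deposited per-position q-value is listed below 0.05 only, and the authors' footprint files hold the constant 0.01 in their value column, so footprints carry no rank. The longer of the 2 peak lists of each library was used.

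Starts came from GENCODE M21. A peak or footprint counted for a gene when it overlapped the 1000 bp on either side of any start by at least 1 bp, and the strongest peak gave the signal. Percentiles rank a gene within its library among the protein-coding genes that have a promoter peak there. Motifs were searched in 300 bp around the centre of the strongest replicate 1 peak, read from GRCm38.p6 for genes in the RefSeq promoter table, and touched a footprint when they overlapped it by at least 1 bp. Positions are counted from 0 at the start base.

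The members, role classes, gene lists, motifs and the rule for named genes were chosen with earlier results of these data known. The rule names the immunoproteasome genes, the members outside both classes, the 3 highest and 3 lowest of each class by mean signal, members without a peak, the 5 with the most footprints and the 3 with the largest ratio between libraries in each direction. Gene lists, motifs and neighbours are described by counts and medians beside the same over all genes. No significance test was made: an exact sign permutation over 2 libraries cannot give a two-sided p below 0.5. Alternatives were other windows, starts, peak lists and summaries and leaving out each library. Peak assignment and motif search were tested on simulated data. Python 3.11.15, pandas 2.3.3, NumPy 2.4.6, SciPy 1.17.1, pysam 0.24.0 and matplotlib 3.10.9 were used.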

Additional observations from a re-analysis of the deposited data

How the results depend on the processing

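The 8 summary results, the counts, medians and ratios over constitutive and immunoproteasome genes, were recomputed under 74 alternatives. Of these, 61 stayed within a set limit, 13 moved beyond it and 0 changed sign, with sign checked for the log2 ratios only. For the class medians and the log2 ratio between classes, the limit was the SD between the libraries. Leaving out 1 library cannot move such a mean by more than this SD. Those alternatives therefore stayed within the limit by construction and are no check. For the counts of genes with a peak it was a fixed fold range. For the log2 ratio between the libraries it was the median counting error of 0.08. Summing all promoter peaks of a gene raised the median over immunoproteasome genes to 4.63 and that over constitutive genes to 5.68, and their log2 ratio was then -0.30, with the main values 3.18, 4.93 and -0.65. Without peaks that lie inside another peak of the same gene these sums gave 4.63, 5.62 and -0.29. Leaving out 1 library gave 2.65 to 3.71 for immunoproteasome genes, 4.61 to 5.25 for constitutive genes and -0.80 to -0.50 for their log2 ratio. The median number of footprints per immunoproteasome promoter was 7 and the same in both libraries, so any change counted as moved. It was 6.5 with a 500 bp window, with the 5′ end only and with starts of coding transcripts only, 9 with a 2500 bp window and 5.5 with footprints inside promoter peaks only, where the constitutive median was 5. Leaving out 1 library gave 7 to 7 and, for constitutive promoters, 6 to 7. Subtracting the median of all promoters took the log2 ratio between the libraries at member promoters to 0.12. With the 5′ end only, 33 of 36 constitutive genes had a peak in both, and every other alternative run gave 5 of 5 immunoproteasome and 36 of 36 constitutive genes, leaving out either library included. The alternatives for sums without nested peaks, for coding transcripts only and for members with the same strongest region in both libraries were chosen after seeing the data. No paired analysis was possible because there is only 1 group. Members other than Psma8 had 211 tags or more at their strongest peak.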
